A study of Mus musculus with 63 samples.

Results

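The 10 genes described here are mouse imprinted genes that lie outside the cluster at the distal end of chromosome 7. They are Peg10, Peg3, Dlk1, Mest, Ndn, Nnat, Impact, Grb10, Igf2r and Gnas. They were chosen by name, with earlier results of these data known, and 17 of the 25697 probes on the array are annotated to them. All 10 were among the 8742 genes with a probe bright enough to test. Of the 17 probes, 15 passed that filter, and the other 2, both annotated to Gnas transcripts, stayed at the lowest deposited value on every array.

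An imprinted gene is read mainly from the copy inherited from one parent, because DNA methylation laid down in the egg or the sperm marks the copies differently. Peg10, Peg3, Mest, Dlk1, Ndn, Nnat and Impact are expressed from the paternal copy. Grb10 and Igf2r are expressed from the maternal copy in most mouse tissues, and Gnas is a complex locus whose main transcript is maternal in a few tissues. Many of these genes act on fetal or placental growth, and embryonic stem (ES) cells are known for imprints that vary between lines and with time in culture. Expression arrays do not separate the parental copies, so the values below are the sum of both.

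The study measured 63 cultures of 7 male-labelled TT2 mouse ES cell lines (C57BL/6 x CBA) on Illumina bead arrays. The lines were wild-type WT1 and WT2, JMJD1a KO1 and KO2, G9a KO1 and KO2, and G9a KO1 reconstituted with a G9a transgene. JMJD1a (gene Kdm3a) is an oxygen-using enzyme that removes methyl groups from lysine 9 of histone H3, and G9a (gene Ehmt2) places them there. Each line was cultured for 24 h in normoxia (21% O2), for 20 h in normoxia and then 4 h at 1% O2, or for 24 h at 1% O2. Each of these 21 groups has 3 cultures, seeded at 2, 4 or 6 times 100000 cells per 6 cm plate, and exposures began 18 h after plating. All lines grew in medium with serum and LIF, the cytokine that keeps mouse ES cells undifferentiated. The knockouts are 2 lines each and the reconstituted genotype is 1 line, so what belongs to a line cannot be told apart from its genotype there. Nothing in the labels says that cultures of 1 line were started separately, so p-values over cultures measure the spread between these plates.

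Values are log2 intensities after quantile normalization, with a floor of 4.32 (an intensity of 20) below which the deposited files hold no signal. Differences were tested with limma, and "called" means an adjusted p under 0.05 after Benjamini-Hochberg correction over all 8742 genes. Between 40.3% and 46.4% of probes were above the floor on an array. Of 15 ES cell markers, 14 were above the floor on every array, and of 13 feeder fibroblast markers, 8 were at the floor on every array and 3 above it on every array. Col3a1, Dcn, Lum, Pdgfra and Pdgfrb were among those at the floor. The feeder markers summed to intensities of 698 to 4141 in wild-type, 593 to 1052 in JMJD1a KO, 502 to 988 in G9a KO and 1013 to 1484 in reconstituted cultures. Trophoblast markers, of which 3 of 11 (Elf5, Hand1 and Tpbpa) were at the floor throughout, summed to intensities of 2244 to 4039 in wild-type and 962 to 2088 in G9a KO cultures. Of 3 Kdm3a probes, the brightest and 1 other lay at the floor on all JMJD1a KO arrays, and the remaining probe was read there at group means of 4.94 to 5.92, against 8.95 to 9.93 in the other lines. Of 3 Ehmt2 probes, 1 had group means of 4.32 to 4.64 over all lines. The others were still read in G9a KO lines, at group means of 7.78 to 8.86 and 7.38 to 8.38. Wild-type lines had 8.46 to 9.74 and 8.23 to 9.63 for these. Since the probes may lie outside the deleted part, they check nothing. Eif2s3y, a Y-linked gene, was low in WT2, a line labelled male. Its group means were 4.32 to 5.30 there against 7.30 to 9.17 in the 6 other lines. Uty, another Y-linked gene, was above the floor in all WT2 cultures, with group means of 5.01 to 5.21 against 5.41 to 5.43 in WT1, so the 2 genes differ on this point. For that reason results that rest on WT2 are given with and without it. In bulk RNA, fewer cells of a type and less RNA per cell cannot be told apart.

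The arrays also fall into 8 sets of up to 8 that follow the deposited order and are inferred here, not labelled. Total intensity stepped by a median of 5.34% between neighbouring arrays of different sets and by 0.692% within a set. The first principal component held 56.5% of the variance, and the set explained 98.6% of it, the line 82.8% and the exposure 0.69%. Lines and sets largely coincide, so their parts in it cannot be told apart. No set holds wild-type and G9a KO arrays together, so set and genotype cannot be told apart in that comparison. For hypoxia against normoxia, within-set values exist for 6 lines at 4 h and for WT1, WT2 and the reconstituted line at 24 h. In every JMJD1a KO and G9a KO line, set and exposure cannot be told apart between normoxia and 24 h.

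Peg10 differed most between lines in normoxia, over a 4.72-fold range. Peg10 encodes a protein derived from an ancient retrotransposon that is needed for the placenta. JMJD1a KO2 had 6.61 ± 0.14, WT2 6.54 ± 0.16 and JMJD1a KO1 6.39 ± 0.12 (mean ± SD, n = 3 cultures each). WT1 followed at 6.12 ± 0.15, the reconstituted line at 5.72 ± 0.36, G9a KO1 at 5.52 ± 0.42 and G9a KO2 at 4.37 ± 0.03. The 3 G9a KO2 cultures sat just above the floor, below every culture of every other line, while the ranges of neighbours in this order overlapped in 4 of 6 steps.

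Mest and Grb10 spread almost as widely, and both were set apart by WT2. Mest, a gene for a protein of the hydrolase fold family, was read at 8.995 ± 0.11 in WT2 and at 10.36 to 11.11 in the other lines. Grb10, an adaptor that dampens insulin and IGF receptor signalling, was read at 9.18 ± 0.30 in WT2, 7.98 ± 0.11 in WT1 and 7.10 to 7.80 in the rest. The line means spanned 4.33-fold for Mest and 4.22-fold for Grb10, and below WT2 each pair of neighbours in the Grb10 order overlapped. The normoxic WT2 cultures all lie in array set 2, and the WT1 culture in that set, at 24 h, read 8.99 for Mest. The Mest gap between WT2 and WT1 was smaller with the array set as a fixed block, as given below.

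Nnat, which encodes a small membrane protein of developing brain, was lowest in the 2 G9a KO lines in normoxia. It was at the floor in all 3 G9a KO2 cultures and at 4.67 ± 0.06 in G9a KO1. WT1 had 5.24 ± 0.13, WT2 5.70 ± 0.32, the reconstituted line 5.71 ± 0.45, JMJD1a KO1 5.75 ± 0.15 and JMJD1a KO2 6.07 ± 0.10. Dlk1, a membrane protein related to the Notch ligands, was likewise dim in G9a KO1 (4.60 ± 0.25), G9a KO2 (4.40 ± 0.09) and the reconstituted line (4.77 ± 0.53). Its 4 other lines had means between 5.42 and 5.69, with wild-type cultures from 5.24 to 5.61. In the reconstituted line the Dlk1 cultures read 4.63 and 4.32 in 1 array set and 5.36 in the next. The remaining genes spread less: 2.03-fold for Peg3, 1.65-fold for Impact, 1.45-fold for Igf2r, 1.37-fold for Gnas and 1.35-fold for Ndn.

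**Figure D1:**
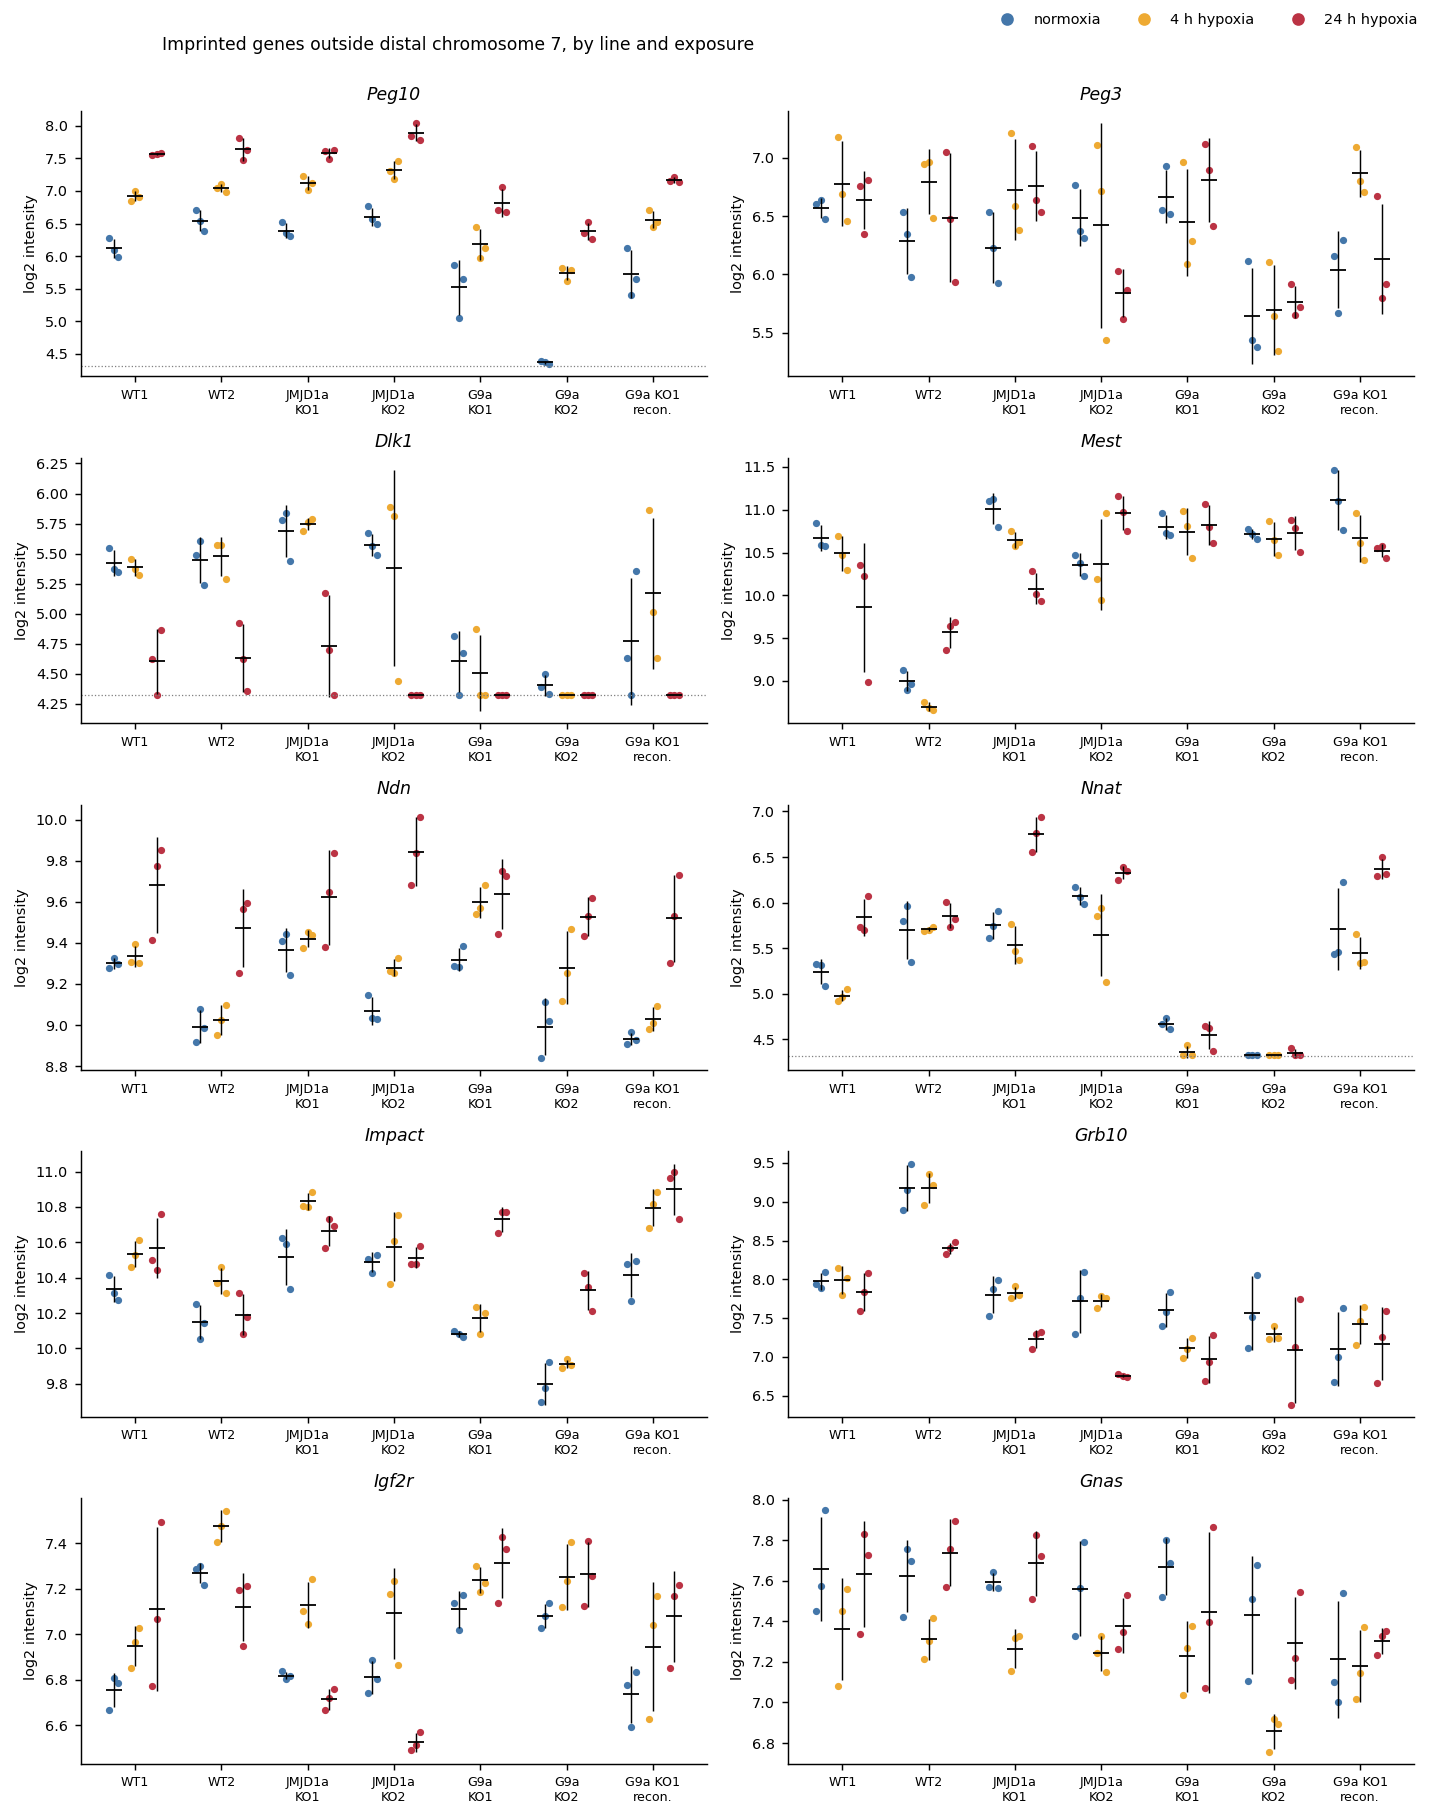
Log2 intensity (y axis, floor at 4.32) of the 10 imprinted genes in the 7 lines and 3 exposures, 1 panel per gene, with a point per culture and the mean ± SD of 3 cultures. Peg10 climbs from normoxia to 24 h in every line, Dlk1 sits at the floor in G9a KO cultures at 24 h, and Mest in WT2 and Nnat in the G9a KO lines sit below the other lines in normoxia.

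The promoters of 4 members whose levels moved with oxygen or line are shown for the CpG pairs and the short motifs they hold. Each runs 5′ to 3′ along the gene's strand from 250 bases before to 50 bases after the start of a RefSeq transcript (GRCm38.p6). Capitals mark ACGTG or GCGTG, the core letters bound by hypoxia-inducible factors, and TGCCGC, the letters bound by ZFP57 at imprinted regions when methylated. Both strands were searched, where a match on the other strand shows as CACGT for the first, as CACGC for the second and as GCGGCA for the third motif, and no matches overlap in these 4 windows.
Dlk1, chr12:109452573-109452872, plus strand: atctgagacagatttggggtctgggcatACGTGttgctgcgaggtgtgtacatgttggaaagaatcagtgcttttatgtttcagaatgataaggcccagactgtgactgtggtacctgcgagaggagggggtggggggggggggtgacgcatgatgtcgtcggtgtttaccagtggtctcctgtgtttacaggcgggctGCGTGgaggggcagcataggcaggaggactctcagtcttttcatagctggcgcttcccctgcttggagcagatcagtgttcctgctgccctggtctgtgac
Ndn, chr7:62348027-62348326, plus strand: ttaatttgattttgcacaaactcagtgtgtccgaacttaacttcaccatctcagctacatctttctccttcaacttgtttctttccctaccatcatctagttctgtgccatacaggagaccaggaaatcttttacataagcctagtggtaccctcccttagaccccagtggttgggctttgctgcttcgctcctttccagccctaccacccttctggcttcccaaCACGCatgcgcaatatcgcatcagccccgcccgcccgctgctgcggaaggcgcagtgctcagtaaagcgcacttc
Nnat, chr2:157559828-157560127, plus strand: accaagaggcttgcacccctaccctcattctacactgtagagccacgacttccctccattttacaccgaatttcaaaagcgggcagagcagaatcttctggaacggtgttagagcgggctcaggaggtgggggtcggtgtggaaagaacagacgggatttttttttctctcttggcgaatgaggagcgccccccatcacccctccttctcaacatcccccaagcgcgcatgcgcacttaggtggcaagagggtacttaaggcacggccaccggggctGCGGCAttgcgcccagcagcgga
Grb10, chr11:12037371-12037670, minus strand: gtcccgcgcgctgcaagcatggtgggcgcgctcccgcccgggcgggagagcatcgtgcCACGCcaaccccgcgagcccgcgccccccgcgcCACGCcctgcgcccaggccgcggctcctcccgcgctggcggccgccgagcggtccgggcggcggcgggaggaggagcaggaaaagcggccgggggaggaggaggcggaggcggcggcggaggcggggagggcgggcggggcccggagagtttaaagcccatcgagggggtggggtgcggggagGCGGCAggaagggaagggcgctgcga
Dlk1 has ACGTG at position -222 and GCGTG at -51, counted from the start. Ndn has GCGTG on the other strand at -25, and Grb10 has it there at -192 and -159. Grb10 and Nnat each hold TGCCGC on the other strand, at 25 and 28. These are letters only: of 32851 such RefSeq windows, 19.6% hold ACGTG, 32.4% GCGTG and 11.6% TGCCGC. The 4 windows held 9, 11, 17 and 45 CpG pairs for Dlk1, Ndn, Nnat and Grb10, against a median of 7 over all windows (quartiles 3 and 20). Grb10 has a second window, at chr11:12027922-12028221, with 9 CpG pairs and none of the 3 motifs. Of the 10 members, 8 had a window. Peg10 and Impact are named only.

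After 24 h at 1% O2, Peg10 and Ndn rose in all 4 genotypes. Dlk1 fell in the wild-type and JMJD1a KO genotypes, and Grb10 fell in wild-type, JMJD1a KO and G9a KO cells. In wild-type cells 3 members were called higher (Peg10, Ndn and Nnat) and 2 lower (Dlk1 and Grb10), where 36.9% of all genes tested were called, 18% higher and 18.9% lower. JMJD1a KO cells had 3 higher and 3 lower, against 49.9% of all genes called (22.4% higher, 27.5% lower). G9a KO cells had 4 higher and 2 lower, against 45.9% (21.2% higher, 24.8% lower). The reconstituted line had 5 higher and 1 lower, against 39% (23.6% higher, 15.4% lower). With backgrounds this high the number of members called is not out of the ordinary. The median member difference was 0.12, -0.05, 0.08 and 0.22 in that order, on the log2 scale, and the median over all genes lay between 0.00 and 0.02.

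Peg10 in wild-type cells ran from 5.98 to 6.70 in normoxia (median 6.33, 6 cultures of 2 lines), from 6.85 to 7.10 at 4 h (median 6.99) and from 7.47 to 7.82 at 24 h (median 7.58). The 3 exposures did not overlap. JMJD1a KO cells showed the same order, from 6.30 to 6.76 in normoxia (median 6.51), 7.01 to 7.46 at 4 h (median 7.21) and 7.49 to 8.04 at 24 h (median 7.71). G9a KO cells began lower, from 4.34 to 5.86 in normoxia (median 4.72), and ended at 6.26 to 7.06 (median 6.60). The reconstituted line had 6.12, 5.41 and 5.65 in normoxia and 7.15, 7.22 and 7.13 at 24 h.

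At 24 h Peg10 was higher by 1.27 ± 0.09 (log2 difference ± SE) in wild-type cells and by 1.24 ± 0.09 in JMJD1a KO cells, a 2.42-fold and a 2.36-fold rise. The rise was 1.65 ± 0.09 in G9a KO cells (3.14-fold) and 1.44 ± 0.13 in the reconstituted line (2.72-fold). The limma adjusted p-values were 2.95e-15, 6.13e-15, 3.19e-19 and 7.61e-12. After 4 h it had already risen by 0.65, 0.72, 1.02 and 0.84 in the same order of genotypes. In each of the 7 lines all 3 cultures at either time lay above all 3 normoxic ones, by line means of 0.50 to 1.38 at 4 h and 1.10 to 2.01 at 24 h. Within array sets the difference was also higher in 6 of 6 lines at 4 h (0.50 to 0.92) and 3 of 3 at 24 h (1.27 to 1.52). WT2 alone gave a rise of 1.10 at 24 h and WT1 alone 1.45. With the floor raised to an intensity of 64 the 4 h rise in G9a KO cells was 0.10 and no longer called.

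Ndn, a neuronal growth suppressor of the Prader-Willi region, rose less but as widely. Wild-type cultures read 8.92 to 9.33 in normoxia (median 9.18) and 9.25 to 9.85 at 24 h (median 9.58). WT2 lay lower than WT1 in both exposures, and within each line the exposures did not overlap. The 24 h difference was 0.43 ± 0.06 in wild-type (adjusted p = 1.51e-07), 0.52 ± 0.06 in JMJD1a KO, 0.43 ± 0.06 in G9a KO and 0.59 ± 0.09 in reconstituted cells, all called. All 7 lines were higher at 24 h, 6 of them with no overlap between cultures. At 4 h Ndn was called only in G9a KO cells, at 0.28 ± 0.06 (adjusted p = 0.000204), and whether that differed from the other genotypes was not tested.

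Dlk1 went the other way. In wild-type cells it read 5.24 to 5.61 in normoxia (median 5.43), 5.29 to 5.57 at 4 h (median 5.41) and 4.32 to 4.92 at 24 h (median 4.62). The 24 h cultures lay below all others, 1 of them at the floor. In JMJD1a KO cells it ran from 5.44 to 5.84 in normoxia and from 4.32 to 5.17 at 24 h, with 4 of 6 cultures at the floor.

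The 24 h difference for Dlk1 was -0.82 ± 0.16 in wild-type (adjusted p = 5.75e-05) and -1.10 ± 0.16 in JMJD1a KO cells (adjusted p = 2e-07). All 3 JMJD1a KO2 cultures were at the floor at 24 h, so its level there was at least 2.31-fold lower than in normoxia. In each JMJD1a KO line the 24 h cultures lie in other array sets than the normoxic ones, so set and exposure cannot be told apart. The JMJD1a KO2 culture at 4 h that shares a set with its 24 h cultures differed by -1.41 from the mean of the others. In G9a KO cells 5 of 6 normoxic cultures were above the floor and none of the 6 at 24 h, and the difference of -0.18 ± 0.16 was not called (adjusted p = 0.389). The reconstituted line had 4.63, 4.32 and 5.36 in normoxia and 3 cultures at the floor at 24 h, a difference of -0.45 ± 0.23 (adjusted p = 0.115) that became -1.15 (adjusted p = 7.64e-05) with the array set as a fixed block. At 4 h Dlk1 was called in no genotype, with differences of -0.09 to 0.40.

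Grb10 was lower at 24 h by 0.46 ± 0.12 in wild-type (adjusted p = 0.00145), and the log2 difference was -0.76 ± 0.12 in JMJD1a KO and -0.56 ± 0.12 in G9a KO cells. The wild-type call rested on WT2, whose 3 cultures went from 8.90, 9.14 and 9.49 to 8.33, 8.40 and 8.48. Without WT2 the difference was -0.14 (adjusted p = 0.621). The reconstituted line showed 0.07 ± 0.16, and -0.46 when its 24 h cultures were set against its 1 normoxic culture of the same array set. Within sets all 3 lines that could be compared were lower, by line differences of -0.85 to -0.26. At 4 h Grb10 was called lower only in G9a KO cells (-0.38 ± 0.12, adjusted p = 0.00823), and not with the array set as a random block (adjusted p = 0.241).

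**Figure D2:**
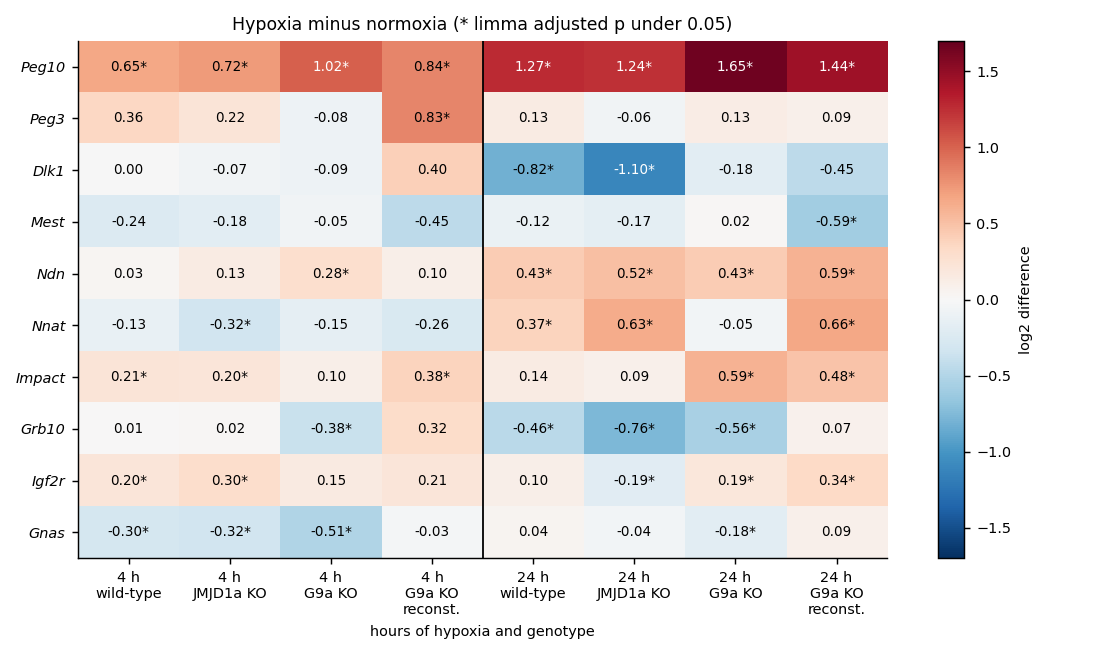
Log2 difference of hypoxia minus normoxia (colour) for the 10 genes in the 4 genotypes after 4 h and 24 h at 1% O2, with an asterisk where the limma adjusted p was under 0.05. Peg10 is called in all 8 columns, Ndn in all 4 at 24 h, and Dlk1 is lower at 24 h with calls in wild-type (-0.82) and JMJD1a KO cells (-1.10).

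Nnat was higher at 24 h in wild-type (0.37 ± 0.11, adjusted p = 0.00596), JMJD1a KO (0.63 ± 0.11) and reconstituted cells (0.66 ± 0.16), and stayed near the floor in G9a KO cells (-0.05 ± 0.11). In JMJD1a KO1 the cultures went from 5.61, 5.74 and 5.91 to 6.55, 6.76 and 6.94, without overlap. Without WT1 the wild-type difference was 0.15 (adjusted p = 0.516), without JMJD1a KO1 the JMJD1a KO difference was 0.26 (adjusted p = 0.16), and with the array set as a fixed block the reconstituted difference was 0.11 (adjusted p = 0.691). A second, dimmer Nnat probe, above the floor on 15 of 63 arrays, gave 0.00 in wild-type, 0.64 in JMJD1a KO, 0.15 in G9a KO and 0.08 in reconstituted cells, of which that in JMJD1a KO cells was called. The 2 Nnat probes correlated at r = 0.383 over the 63 arrays, which share lines and sets. At 4 h Nnat was called in JMJD1a KO cells alone, at -0.32 ± 0.11 (adjusted p = 0.0215).

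After 4 h at 1% O2, Gnas fell in 3 genotypes beside the rise of Peg10. Gnas, the stimulatory G protein alpha subunit that couples receptors to cyclic AMP, was lower in wild-type, JMJD1a KO and G9a KO cells. Igf2r, the receptor that clears IGF2 from the cell surface, and Impact, an inhibitor of the stress kinase GCN2, were called higher in 2 and 3 genotypes. In wild-type cells at 4 h, 3 members were called higher (Peg10, Impact and Igf2r) and 1 lower (Gnas) where 27.3% of all genes were called, 14.4% higher and 13% lower. JMJD1a KO cells had 3 higher and 2 lower, against 30.4% of all genes (13.5% higher, 16.8% lower). G9a KO cells had 2 higher and 2 lower, against 33.8% (16.3% higher, 17.5% lower). The reconstituted line had 3 higher and 0 lower, against 37.5% (22.9% higher, 14.6% lower).

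Gnas in wild-type cells read 7.42 to 7.95 in normoxia (median 7.64), 7.08 to 7.56 at 4 h (median 7.36) and 7.34 to 7.89 at 24 h (median 7.74). The 4 h cultures were low. The 24 h cultures were in the normoxic range apart from the lowest, at 7.34, and all 3 exposures overlapped in part. The 4 h difference was -0.30 ± 0.08 in wild-type (adjusted p = 0.00156), -0.32 ± 0.08 in JMJD1a KO (adjusted p = 0.000714) and -0.51 ± 0.08 in G9a KO cells (adjusted p = 4.5e-07). It was -0.03 ± 0.11 in the reconstituted line. All 7 lines were lower at 4 h, as were 6 of 6 within array sets (-0.63 to -0.27), where the reconstituted line gave -0.36. The second Gnas probe, which correlated with the first at r = 0.816 over 63 arrays, gave -0.54, -0.44, -0.61 and -0.05 in the same order of genotypes. At 24 h Gnas was called only in G9a KO cells (-0.18 ± 0.08, adjusted p = 0.0431), and without either of those lines it was not. Without WT2 the wild-type 4 h difference was -0.29 (adjusted p = 0.0722).

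Impact was higher at 4 h in wild-type (0.21 ± 0.06, adjusted p = 0.00749), JMJD1a KO (0.20 ± 0.06) and reconstituted cells (0.38 ± 0.09), and all 7 lines lay higher by 0.09 to 0.38. At 24 h it was called in G9a KO cells (0.59 ± 0.06, adjusted p = 1e-10) and the reconstituted line (0.48 ± 0.09), with 0.14 ± 0.06 in wild-type and 0.09 ± 0.06 in JMJD1a KO cells. The G9a KO cultures rose from 9.69 to 10.10 in normoxia (median 10.00) to 10.21 to 10.77 at 24 h (median 10.54), without overlap. In each G9a KO line the 24 h cultures lie in other array sets than the normoxic ones, so set and exposure cannot be told apart. Set against the wild-type response, the difference in 24 h response was 0.45 ± 0.13, with an unadjusted p of 0.0205 and an adjusted p of 0.597.

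Igf2r differences at 4 h were 0.20 ± 0.08 in wild-type (adjusted p = 0.0416) and 0.30 ± 0.08 in JMJD1a KO cells (adjusted p = 0.00189), both called. They were 0.15 in G9a KO cells and 0.21 in the reconstituted line, not called. All 7 lines were higher, by 0.13 to 0.31, and the second Igf2r probe gave 0.35, 0.35, 0.30 and 0.35. At 24 h the direction was split, with -0.19 ± 0.08 in JMJD1a KO, 0.19 ± 0.08 in G9a KO and 0.34 ± 0.11 in reconstituted cells. The wild-type call of Igf2r at 4 h was lost when either wild-type line was left out (0.21 and 0.19), as was that of Impact (0.23 and 0.20).

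Mest gave opposite 24 h responses in sister lines. WT1 cultures went from 10.84, 10.59 and 10.57 in normoxia to 10.36, 10.23 and 8.99, and WT2 cultures from 9.12, 8.90 and 8.97 to 9.36, 9.65 and 9.69. JMJD1a KO1 cultures went from 11.10, 11.13 and 10.80 to 10.28, 10.02 and 9.93, and JMJD1a KO2 cultures from 10.48, 10.38 and 10.22 to 11.16, 10.97 and 10.76. In each of these 4 lines the exposures did not overlap, yet the genotype differences were only -0.12 ± 0.13 and -0.17 ± 0.13. The 1 WT1 culture at 8.99 sits in a different array set from the other 2, and all JMJD1a KO 24 h cultures sit in other sets than their normoxic ones. Within sets, WT1 differed by -0.38 and WT2 by 0.36 at 24 h.

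The 2 other Mest probes were read lower at 24 h in 3 genotypes. They gave 24 h differences of -0.24 and -0.35 in wild-type, -0.49 and -0.37 in JMJD1a KO and -0.60 and -1.05 in reconstituted cells. Within the normoxic reconstituted cultures these probes stepped by -1.02 and -1.86 where the array set changes. The 1 normoxic culture in the set of the 24 h cultures read 8.68 and 6.60. The 24 h cultures of that line read 8.71 to 8.81 and 6.43 to 6.99, so they were not lower than it on the first of these probes. The 2 probes correlated with each other at r = 0.838 and with the brightest probe at 0.557 and 0.54 over the 63 arrays. At 4 h the brightest probe was lower in wild-type by 0.24 and in JMJD1a KO by 0.18, not called (adjusted p = 0.185 and 0.323). With the array set as a fixed block these were -0.24 (adjusted p = 0.000471) and -0.36 (adjusted p = 2.3e-06).

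**Figure D3:**
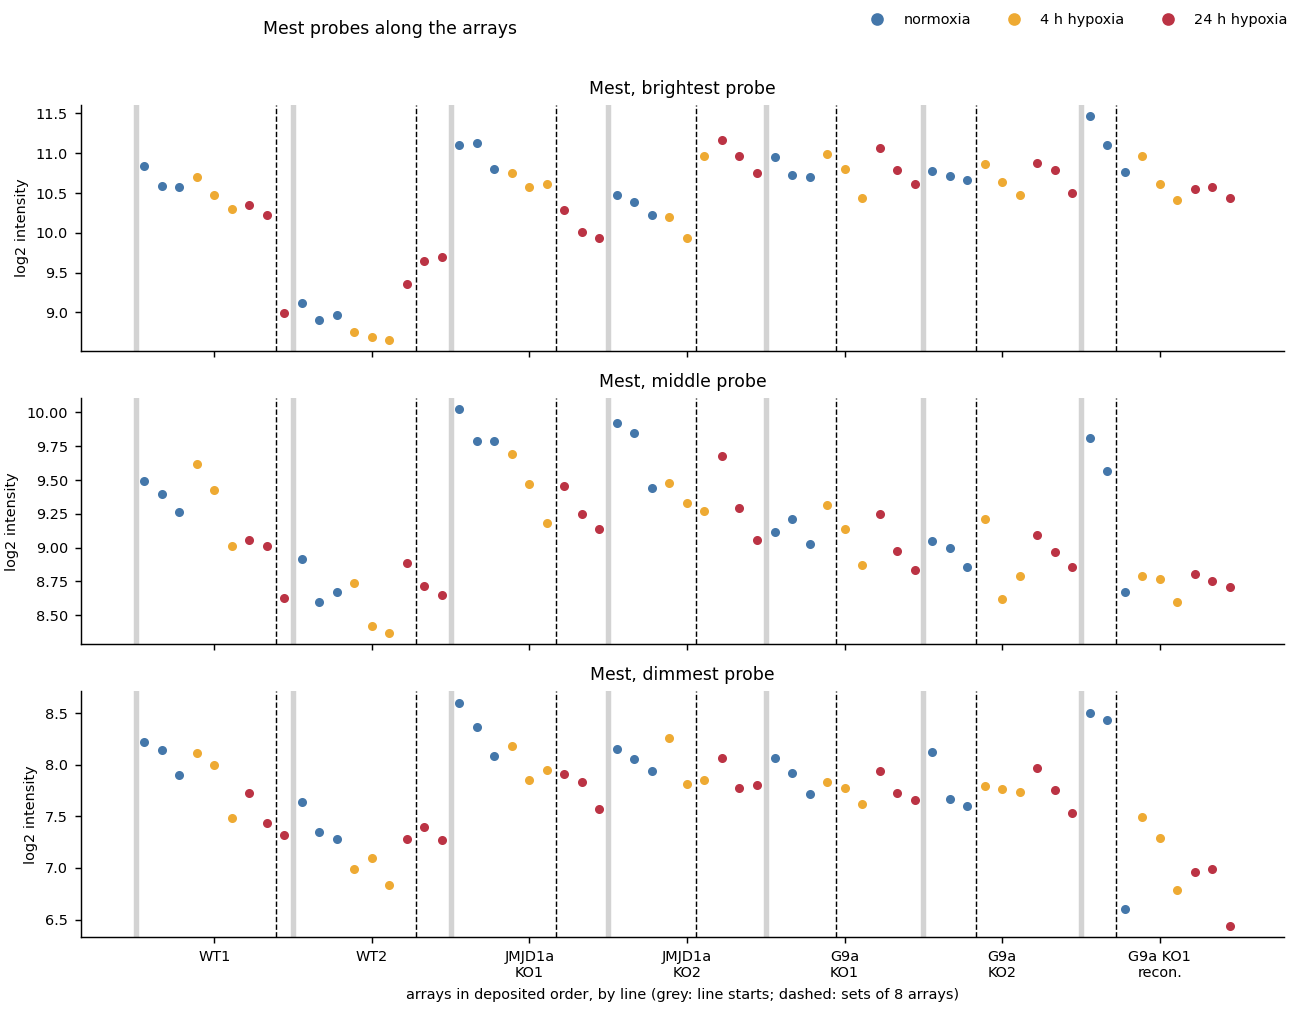
Log2 intensity of the 3 Mest probes on the 63 arrays in deposited order (x axis), with line and array-set boundaries. The brightest probe steps within 1 group where the set changes. It goes down by 1.30 in WT1 at 24 h and up by 0.89 in JMJD1a KO2 at 4 h. The 2 other probes step by -0.41 and -0.27, and by -0.13 and -0.19, at those places. In normoxic cultures of the reconstituted line the brightest probe steps by -0.52 and the 2 others by -1.02 and -1.86.

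Peg3, a zinc finger protein of fetal growth and maternal care, was called in 1 of the 8 hypoxia comparisons, at 4 h in the reconstituted line (0.83 ± 0.21, adjusted p = 0.00205). That value was 0.31 (adjusted p = 0.368) with the array set as a fixed block. In wild-type cells the 4 h difference was 0.36 ± 0.15 (adjusted p = 0.0734), and 0.36 with an adjusted p of 0.00578 when the set was a block. Within sets all 6 lines that could be compared were higher at 4 h, by 0.21 to 0.57. At 24 h JMJD1a KO1 stood at 0.53 and JMJD1a KO2 at -0.65, with every density of each line on its own side. In each of these lines the 24 h cultures lie in other array sets than the normoxic ones, so set and exposure cannot be told apart. Within JMJD1a KO2 at 4 h, Peg3 differed by -1.48 between the same sets.

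**Figure D4:**
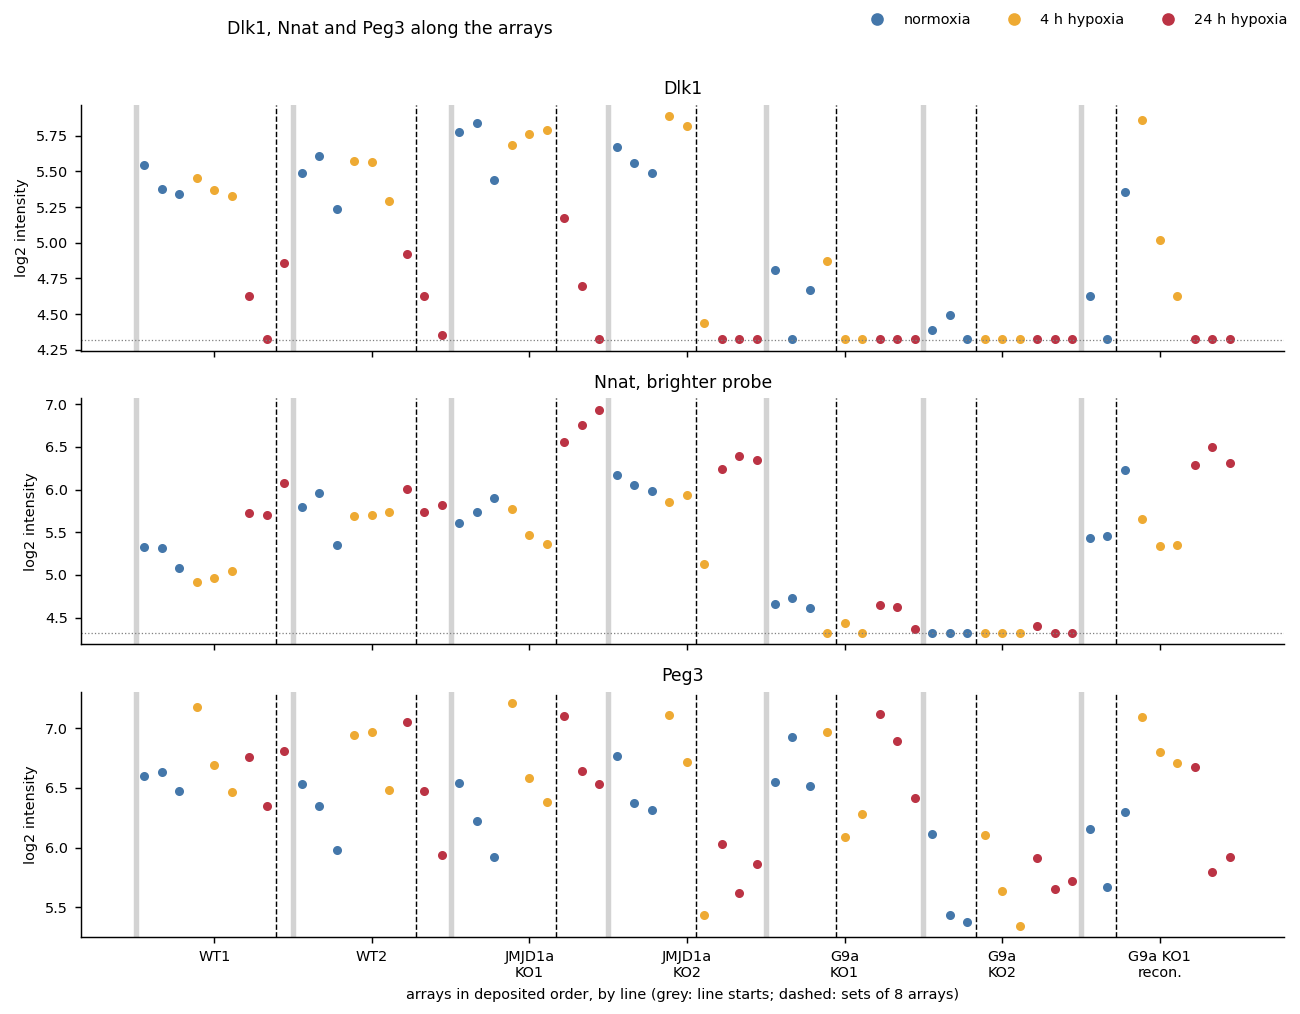
Log2 intensity of Dlk1, the brighter Nnat probe and Peg3 on the 63 arrays in deposited order (x axis), with array-set boundaries and colours for the exposure. Within JMJD1a KO2 at 4 h, 1 culture in the next set lies 1.41 lower for Dlk1 and 1.48 lower for Peg3 than the mean of the other 2.

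Genotype comparisons rest on 2 lines against 2, so they were tested on line means. Between JMJD1a KO and wild-type lines no member was called in normoxia, at 4 h or at 24 h by limma on line means, where 0.0114% of all genes was called in each, which is Kdm3a alone. With cultures as the unit and the line as a random block, 1, 1 and 3 members were called. Unadjusted p under 0.05 was reached by 380, 500 and 541 of 8742 genes, and among members by Nnat (0.69, interval 0.23 to 1.16), Grb10 (-1.12, interval -1.83 to -0.41) and Igf2r (-0.49, interval -0.76 to -0.23), all at 24 h. The 95% intervals for Peg10 were -1.04 to 1.38 in normoxia and -0.40 to 0.66 at 24 h. Differences within those bounds were not excluded with 2 lines against 2.

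In G9a KO lines Dlk1, Peg10 and Nnat were lower than in wild-type. In normoxia 1 member was called lower, Dlk1 at -0.93 ± 0.09 (adjusted p = 0.0166), where 23.5% of all genes were called, 7.36% higher and 16.1% lower. At 4 h 3 were called lower, where 34.3% of all genes were called, 11.6% higher and 22.7% lower: Peg10 at -1.02 ± 0.18 (adjusted p = 0.0198), Dlk1 at -1.02 ± 0.15 (adjusted p = 0.0149) and Nnat at -1.002 ± 0.26 (adjusted p = 0.0473). At 24 h 1 was called lower, where 6.78% of all genes were called (3.25% higher, 3.53% lower), Nnat at -1.40 ± 0.17 (adjusted p = 0.0355). All genes tested had a median difference of -0.12 to -0.14 in these comparisons, and no member was called higher.

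Line by line, Dlk1 in normoxia was 5.24 to 5.61 in the 6 wild-type cultures and 4.32 to 4.81 in the 6 G9a KO cultures, without overlap. Nnat at 24 h was 5.70 to 6.08 in wild-type and 4.32 to 4.64 in G9a KO cultures, and Peg10 at 4 h was 6.85 to 7.10 and 5.63 to 6.44, again without overlap. Peg10 differed by -1.39 in normoxia (adjusted p = 0.089) and -1.01 at 24 h (adjusted p = 0.0559), and Grb10 by -0.99 to -1.38 over the exposures (adjusted p = 0.0655 to 0.151). Without WT2 the Grb10 differences were -0.39 in normoxia, -0.79 at 4 h and -0.81 at 24 h, and without WT1 -1.59, -1.98 and -1.37. Of these, the 4 h values and the value in normoxia without WT1 were called. Mest was read higher by 0.92 in normoxia, 1.11 at 4 h and 1.06 at 24 h, not called. Without WT2 the Mest differences were 0.09, 0.21 and 0.92, none called, and without WT1 1.76 and 2.00, both called, and 1.21, so the values in normoxia and at 4 h rest on WT2. Without WT2, Dlk1 in normoxia was -0.92 (adjusted p = 0.0554) and Peg10 at 4 h was -0.96 (adjusted p = 0.06), and Nnat at 24 h was not called when any 1 of the 4 lines was left out (adjusted p = 0.163 to 0.181). Without G9a KO2, Peg10 at 4 h was -0.80 (adjusted p = 0.0648). With the floor at 64, the difference of Nnat at 24 h was -0.01. The summed intensity of the trophoblast markers was lower in G9a KO cells, as given above, and that of the ES cell markers was higher (61067 to 72422 against 41885 to 52591). The feeder marker sums overlapped, at 502 to 988 in G9a KO and 698 to 4141 in wild-type cultures. Their part in these differences was not tested.

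Nnat was higher in the reconstituted line than in its parent G9a KO1 at all 3 exposures. No array set holds both lines, so set and line cannot be told apart in this comparison. Cultures went from 4.66, 4.73 and 4.61 in the parent to 5.44, 5.46 and 6.23 in normoxia. At 24 h they went from 4.64, 4.63 and 4.37 to 6.29, 6.50 and 6.31. The differences were 1.04 ± 0.16 (adjusted p = 7.7e-07), 1.09 ± 0.16 at 4 h and 1.82 ± 0.16 at 24 h (adjusted p = 2.91e-13). With the array set as a random block the 4 h difference was 0.64 (adjusted p = 0.122). With the floor at 64 the differences were 0.08 (adjusted p = 0.339), 0.00 and 0.37, of which that at 24 h was called. The second Nnat probe gave 0.54, 0.02 and 0.32, with calls in normoxia and at 24 h.

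Impact was also higher in the reconstituted line in normoxia (0.33 ± 0.09) and at 4 h (0.62 ± 0.09, adjusted p = 1.33e-07). Peg10 differed by 0.20 ± 0.13 in normoxia (adjusted p = 0.287) and was higher by 0.38 at 4 h and 0.35 at 24 h, both called. Peg3, Ndn, Grb10, Igf2r and Gnas were lower in normoxia by log2 differences of -0.62, -0.39, -0.50, -0.37 and -0.46. In all, 2 members were called higher and 5 lower in normoxia, against 28.2% of all genes (14.9% higher, 13.3% lower). At 4 h 4 were higher and 2 lower, against 54.4% (33.7% higher, 20.7% lower), and at 24 h 2 and 1, against 55.4% (34.9% higher, 20.5% lower). With the array set as a random block 1 member remained called in normoxia, 1 at 4 h and 2 at 24 h.

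Sister lines of 1 genotype also differed. WT2 against WT1 in normoxia had 4 members called higher and 2 lower, against 40.4% of all genes (24.2% higher, 16.2% lower), led by Mest at -1.67 ± 0.18 (adjusted p = 8.05e-10) and Grb10 at 1.20 ± 0.16 (adjusted p = 1.44e-07). With the array set as a fixed block Grb10 stood at 1.17 (adjusted p = 0.00612) and Mest at -0.60 (adjusted p = 0.00316), and the 2 other Mest probes each gave -0.66. Igf2r moved from 0.51 to 0.06 under that block. Ddc and Cobl, which flank Grb10 on chromosome 11, were higher in WT2 as well, by 1.57 ± 0.10 (adjusted p = 1.32e-17) and 1.27 ± 0.17 (adjusted p = 4.89e-08).

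JMJD1a KO2 against KO1 had no member called, with limma calling 1.02% of all genes (0.652% higher, 0.366% lower) and 1250 genes reaching an unadjusted p under 0.05. G9a KO2 against KO1 had 4 called lower, against 15.5% of all genes (6.05% higher, 9.44% lower). They were Peg10 (-1.15 ± 0.13, adjusted p = 4.68e-09), Peg3 (-1.02 ± 0.21), Ndn (-0.33 ± 0.09) and Impact (-0.28 ± 0.09), of which the last 3 were not called with the array set as a fixed block.

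No member's 24 h response differed between a knockout genotype and wild-type after correction, and no gene of the 8742 did. Unadjusted p under 0.05 was reached by 229 genes for JMJD1a KO and 553 for G9a KO. Among members it was reached for G9a KO by Dlk1 (0.64 ± 0.15, limma adjusted p = 0.469), whose G9a KO cultures began near the floor, and by Impact. For Peg10 the difference in response was -0.04 in JMJD1a KO (interval -0.80 to 0.72) and 0.38 in G9a KO (interval -0.38 to 1.14).

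With seeding density 8 of the 10 members were called, 4 higher and 4 lower, where 32.6% of all genes were called, 15% higher and 17.7% lower. Per 100000 cells Grb10 rose by 0.11 ± 0.02 (adjusted p = 4.06e-07), Gnas by 0.08 ± 0.01 (adjusted p = 5.1e-08), Ndn by 0.04 ± 0.01 and Igf2r by 0.03 ± 0.01. Peg3 changed by -0.14 ± 0.02 (adjusted p = 9.07e-07), Mest by -0.07 ± 0.02, Dlk1 by -0.06 ± 0.02 and Peg10 by -0.03 ± 0.01 (adjusted p = 0.049).

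Between the sparsest and the densest plate of a group, Grb10 was higher in the densest in 19 of 21 groups, Gnas in 19, Ndn in 18 and Igf2r in 17. Peg3 was lower in 19 of 21 groups, Mest in 19 and Peg10 in 17. Nnat and Impact, split 9 to 10 and 12 to 9, were not called. Without the plates of density 2, Grb10 alone among the members was called, and Peg10 stood at 0.01. Of 6 known hypoxia-induced genes (Adm, Ndrg1, Egln3, Slc2a1, Pdk1 and Vegfa), all 6 rose with density and all 6 rose after 4 h and 24 h at 1% O2 in wild-type cells. Their part in the density result was not tested.

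**Figure D5:**
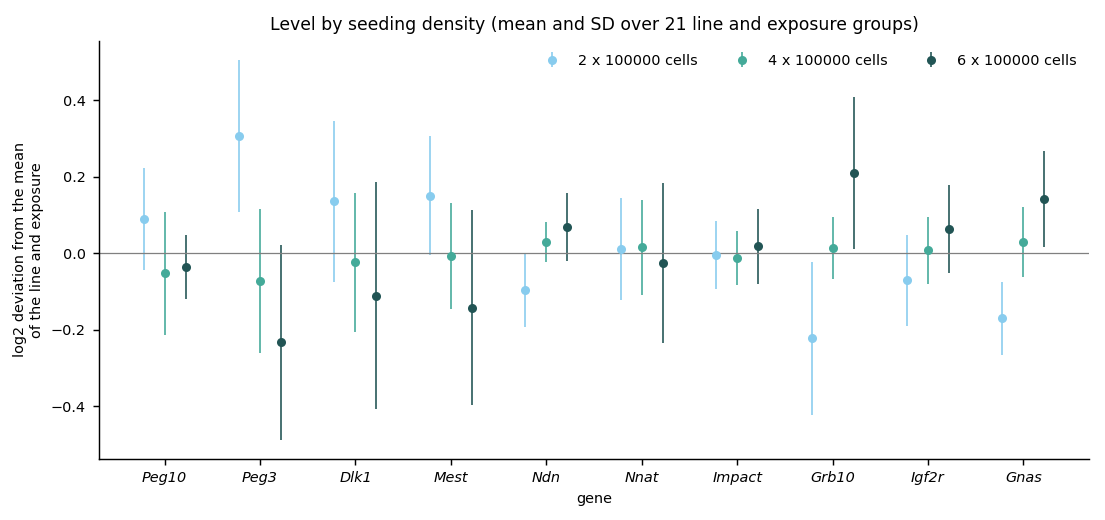
Mean deviation ± SD of log2 intensity from the group mean (y axis) for each gene (x axis) over 21 groups, with colours for 2, 4 and 6 times 100000 cells per plate. Grb10 and Gnas climb with density, from -0.22 to 0.21 and from -0.17 to 0.14, and Peg3 and Mest decline, from 0.31 to -0.23 and from 0.15 to -0.14.

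Genes next to the members on their chromosomes were measured for 15 of 22 listed neighbours, and 7 were bright enough to test. Snrpn, near Ndn, rose at 24 h in wild-type cells by 0.21 ± 0.05 (adjusted p = 0.00211). Ddc and Cobl were lower there by log2 differences of -0.39 ± 0.07 (adjusted p = 7.58e-06) and -1.14 ± 0.12 (adjusted p = 8.4e-11), beside the -0.46 of Grb10. Cobl was also called lower in the 3 other genotypes at 24 h. Blcap, which holds Nnat in an intron, differed by -0.20 ± 0.09 in wild-type cells, not called. Sgce, Usp29, Zim1, Rtl1, Peg12 and Slc22a2 were at the floor on all 63 arrays.

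Over the 21 group means, the genes most like Peg10 were Inppl1 (Pearson r = 0.948) and Map2k4 (0.938). For Dlk1 they were Gsta4 (0.928) and Gadd45a (0.92), for Mest Txndc12 (0.967) and Tmem184c (0.949), and for Nnat Slc25a14 and Gfod2 (both 0.949). For Grb10 they were Ndufs8 (0.915) and Sdhc (0.892), and for Ndn Tubb6 (0.887) and Vwa5a (0.854). Among the members, Mest and Grb10 were opposed (r = -0.84), and Peg10 went with Nnat (0.684) and Impact (0.659). These are descriptions over 21 groups that share lines and array sets.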

How the data were processed

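RNA from 63 cultures was hybridised to Illumina MouseRef-8 arrays, and the authors deposited 1 linear intensity per probe and array, processed with BeadStudio per the submitters' processing notes. Its version is not given in the sources used here, nor are its settings. The intensities stop at a floor of 20. They were taken to log2, quantile normalized and returned to the floor, which may narrow differences near it.

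Probes had to exceed the floor in each of the 3 cultures of some group, and the brightest kept probe stood for its gene. Hypoxia, sister lines, the reconstituted line and density were tested with limma 3.58.1 (R 4.3.3) on 21 line and exposure means plus a linear density term over 63 arrays. Knockouts were tested against wild-type on line means. P-values were Benjamini-Hochberg adjusted over 8742 genes and the pipeline was tested on simulated data. Figures used Python 3.11.15 and matplotlib 3.10.9.

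The number of arrays limits the precision. A raw table with 126 columns that no label ties to samples was not used. Array sets of 8 were inferred from the deposited order and steps in total intensity. Cultures with the same density number were not treated as paired, since their deviations from the group means correlated at a median of 0.236 and as low as -0.161 over 63 pairs of groups. Alternatives were the normalization, filter, floor, probe rule, array set, replicate block, unit of replication, and leaving out a density or a line.

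The named genes are the 10 members, listed neighbours on the chromosome, up to 5 called genes of each other list with the largest difference in a comparison described, and the 2 genes most like a member. Members and lists were chosen with earlier results of these data known.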

Additional observations from a re-analysis of the deposited data

Results flagged for a closer look

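In 89 groups of 4 to 10 cultures, 3 held a culture far from the others, where chance gives about 1 in 20. Dlk1 in JMJD1a KO cells at 4 h read 4.44 in JMJD1a KO2 at density 6, with the other cultures between 5.69 and 5.89. Dlk1 in G9a KO cells at 4 h read 4.87 in G9a KO1 at density 2, with the others at the floor of 4.32. Nnat in G9a KO cells at 4 h read 4.44 in G9a KO1 at density 4, with the nearest of the others at 4.32. The first and the second of these 3 cultures each lie in a different array set from the other cultures of their line at 4 h, and the part of the set was not tested.

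Among 80 pairs of line responses, 6 had every density of one line moving one way and every density of the other the opposite way, and these differences were not tested. Mest at 24 h gave -0.81 in WT1 and 0.57 in WT2, a difference of -1.38, and -0.93 in JMJD1a KO1 and 0.60 in JMJD1a KO2, a difference of -1.54. Peg3 at 24 h gave 0.53 in JMJD1a KO1 and -0.65 in JMJD1a KO2, a difference of 1.18. In each JMJD1a KO line the 24 h cultures lie in other array sets than the normoxic ones. Igf2r at 24 h gave 0.36 in WT1 and -0.15 in WT2, a difference of 0.50. Between G9a KO1 and its reconstituted line, Nnat at 24 h gave -0.12 and 0.66 (-0.78), and Grb10 at 4 h gave -0.49 and 0.32 (-0.81).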

How the results depend on the processing

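Of 230 results on single members, 78 were called, and 23 of them were called under every alternative that tested them, among them Peg10 and Ndn at 24 h in all 4 genotypes. Those 23 include Dlk1 at 24 h in wild-type and JMJD1a KO cells, which was not tested with a floor of 64 or with genes above the floor on all arrays, and Nnat in the reconstituted line against its parent at 24 h, which was not tested under the latter. For JMJD1a KO and G9a KO cells at 24 h the array set as a fixed block could not be fitted. Their calls at 24 h, those of Peg10 and Ndn included, were thus not tested under it. The cause of the changes below was not tested. Signs turned for Dlk1 in the reconstituted line against its parent at 4 h with the array set as a random block (0.66 to -0.0725, adjusted p = 0.978). They also turned with 1 line or density left out: Peg10 with density was 0.0086 without density 2 and -0.0712 without density 6. Mest at 24 h was 0.57 (adjusted p = 0.00401) without WT1 and -0.81 without WT2, and 0.60 (adjusted p = 0.00807) without JMJD1a KO1 and -0.93 without JMJD1a KO2. Peg3 at 24 h was 0.53 (adjusted p = 0.0312) without JMJD1a KO2 and -0.65 without JMJD1a KO1, and Igf2r in G9a KO against wild-type at 4 h was -0.23 (adjusted p = 0.0344) without WT1 and 0.30 without WT2.

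Counts of members called at 24 h in wild-type were 5, and 3 both with genes above the floor on all arrays, where Dlk1 and Nnat were not tested, and with a floor of 64, where Dlk1 was not tested and Nnat was 0.01. G9a KO against wild-type gave 1, 3 and 1 in normoxia, at 4 h and at 24 h, then 0, 1 and 0 with that floor, 3 at 24 h with genes above the floor throughout, 2 at 24 h without quantile normalization, and 6, 9 and 5 with the line as a random block, where JMJD1a KO against wild-type gave 1, 1 and 3 in place of 0. With the array set as a random block, counts went from 4 to 2 for G9a KO at 4 h, from 7 to 1 and from 6 to 1 for the reconstituted line against its parent in normoxia and at 4 h, and from 4 to 2 for G9a KO2 against KO1, which was 1 with the set as a fixed block. Without quantile normalization the reconstituted line against its parent at 24 h had 5 in place of 3, and JMJD1a KO2 against KO1 had 1 in place of 0. Leaving out a density or a line gave, in the order wild-type, JMJD1a KO, G9a KO and reconstituted, 4 to 7, 5 to 7, 4 to 6 and 2 to 6 members at 24 h and 1 to 6, 2 to 6, 3 to 4 and 1 to 6 at 4 h. It gave 3 to 8, 4 to 5 and 2 to 4 for the reconstituted line against its parent, 4 to 5 for WT2 against WT1, 0 to 3 and 1 to 6 for the JMJD1a and G9a KO pairs, 1 to 7 for density, 0, 0 to 2 and 0 to 2 for JMJD1a KO against wild-type, and 0 to 4, 0 to 6 and 0 to 2 for G9a KO against wild-type.

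Over all genes, G9a KO against wild-type at 24 h called 593 genes, 3 when WT1 or WT2 was left out, 45 and 72 without G9a KO1 and KO2, 1639 with genes above the floor throughout, 394 with all probes tested and 5166 with the line as a random block. It called 2050 in normoxia (559 to 3320 with a line left out, 4864 with that block) and 2999 at 4 h (929 to 4756, and 5086). JMJD1a KO against wild-type called 1 gene at each exposure, and 157, 170 and 543 with that block. With the array set as a random block, the reconstituted line against its parent called 665, 615 and 614 genes in place of 2466, 4755 and 4846, WT2 against WT1 855 in place of 3536, and G9a KO2 against KO1 505 in place of 1354. At 24 h that block gave 2631, 2635 and 1837 in place of 4365, 4015 and 3412 for JMJD1a KO, G9a KO and reconstituted cells, and at 4 h 1727 and 1429 in place of 2954 and 3275 for the last 2. JMJD1a KO2 against KO1 called 89 genes, and 741 without density 6. Density called 2853, and 205 without density 2. Without density 4, wild-type cells called 1830 at 24 h and 1130 at 4 h in place of 3227 and 2389. Adding line by density as a replicate block kept every count of members in the hypoxia comparisons except that of the reconstituted line at 4 h, which went from 3 to 4 with Mest at an adjusted p of 0.0489. Background correction of the raw table was not run, since no label ties its columns to samples. Dlk1 and Nnat lie near the floor, which limits how far below it their levels can be read.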

Other observations

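Of 49 other imprinted genes on the array 30 were tested. After 24 h at 1% O2 in wild-type cells 6 were higher and 5 lower, a share near that of all genes, of which limma called 36.9% (18% higher, 18.9% lower). The largest were Nhlrc1 (-0.87, adjusted p = 1.47e-09), Axl (0.61), Atp10a (0.56), Ppp1r9a (0.47) and Pon2 (0.43). In G9a KO against wild-type lines in normoxia 3 were lower, where 16.1% of all genes were called lower, Pon2 at -2.12 (adjusted p = 0.0212), Zfp787 at -1.25 (adjusted p = 0.0149) and Jade1 at -0.44 (adjusted p = 0.0321).

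Among genes of IGF and insulin signalling, the pathway on which Grb10 and Igf2r act, 19 of 25 on the array were tested. After 24 h 8 were higher and 2 lower in wild-type cells, with a median log2 difference of 0.23, where 18% of all genes were higher and 18.9% lower. The binding protein genes Igfbp4 (1.04) and Igfbp2 (0.57), the kinase subunit gene Pik3r1 (0.75) and the adaptor gene Irs2 (0.55) were higher, and Igfbp7 was lower (-0.59). In G9a KO cells 7 were higher and 2 lower, where 45.9% of all genes were called (21.2% higher, 24.8% lower), with Igfbp4 at 2.66 and Igfbp7 at -1.99.

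Of genes that set or keep imprints, 27 of 30 on the array were tested, and in wild-type cells 6 were higher and 4 lower at 24 h, a share near the 36.9% of all genes called. Dppa3, which protects maternal methylation in the zygote, was lower (-0.82), as was Zfp42 (-0.62), and Dnmt3l was higher (0.42).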
